A study of Mus musculus with 3 samples.

Results

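The genes described here encode the mitochondrial respiratory chain and the ATP synthase, as measured in sorted cells of the mouse spleen. They were chosen by name: every gene whose single symbol in the array's platform annotation starts with Nduf, Sdha, Sdhb, Sdhc, Sdhd, Uqcr, Cox4, Cox5, Cox6, Cox7, Cox8 or Atp5, or is Cycs or Cyc1. This gave 96 genes with 190 probe sets, out of 18193 genes with 34945 probe sets in the whole series, and the rule uses no measured value, although the set was proposed with earlier results of these data known. A probe set is a group of short probes that report 1 transcript, and where a gene had several, the one brightest on average was used. Of the 96 genes, 84 encode subunits and 12 encode assembly factors, which help to build complexes I and II but are not part of the finished enzymes.

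The series profiled 3 populations on 1 Affymetrix array each: monocytes without Spic expression (GFP-), monocytes with it (GFP+) and red pulp macrophages. All cells came from adult mice of the genotype Spic(igfp/+), so all groups carry a Spic allele with a green fluorescent reporter beside a normal allele, and there was no mouse without the reporter. Monocytes were sorted as positive for CD11b and Ly6C and separated by the Spic reporter after cells bearing CD4, CD8 or B220 had been removed, and red pulp macrophages were sorted as high for F4/80 and for the reporter. How many mice each array represents is not given.

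The respiratory chain passes electrons from NADH and succinate to oxygen and pumps protons across the inner mitochondrial membrane, and the ATP synthase uses the proton gradient to make ATP. Complex I (NADH dehydrogenase), complex III, complex IV (cytochrome c oxidase) and the ATP synthase combine subunits encoded in the nucleus with subunits encoded in mitochondrial DNA, while complex II (succinate dehydrogenase) is encoded in the nucleus alone. Red pulp macrophages are the resident macrophages of the spleen that clear old erythrocytes and return the iron to the body, and heme and iron-sulfur clusters are among the electron carriers of the chain.

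There were no replicates, so every comparison below is a log2 difference between single arrays, without a significance test. A log2 difference of 1 is 2-fold. Genes were compared where their brightest array lay above a floor of log2 5.02, the median of all probe sets over the 3 arrays, since levels under it are near background. Of the 96 genes 93 passed, 89 of them on all 3 arrays. Cox4i2, Cox8b and Ndufa4l2 passed through the monocyte arrays only, and Sdhaf3 was below the floor in GFP+ monocytes. Cox7a1, Cox7b2 and Ndufb4 were below it on every array, with levels of 2.804 to 4.636, and no difference is read from them. The Ndufb4 transcript is also reported by probe sets shared with its copies, which were not used.

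The reporter gene followed the labels. Spic, the transcription factor behind the reporter, measured log2 5.66 in GFP- monocytes, 9.22 in GFP+ monocytes and 12.23 in red pulp macrophages. Itgam, which encodes CD11b, measured 8.68, 7.38 and 5.23 in the same order, although both monocyte populations were sorted as positive for it. All 16 red pulp macrophage markers, Spic included, were at least 2-fold higher in macrophages than on either monocyte array. Of all genes, 19.6% were so against GFP- and 22% against GFP+ monocytes. The floor was passed by 10 of the 16 on the GFP- array, 14 on the GFP+ array and 16 on the macrophage array. Array medians lay between 4.96 and 5.08. The 18 hybridization controls, which are spiked in at a fixed amount, were brighter for GFP+ than for GFP- monocytes by a median of 2.16, while macrophages and GFP- monocytes differed by 0.07. For the Gapdh control, the 3' probe set less the 5' one, a measure of how much shorter the labelled RNA is, was 0.48 in GFP- monocytes, 2.25 in GFP+ monocytes and 1.61 in red pulp macrophages. The same measure for Actb had another order, with 0.74, 0.57 and 1.13.

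Between the monocyte populations the respiratory chain genes were nearly level. Of the 93 compared, 88 differed by less than 1.5-fold (log2 0.58), which is 94.6% of them against 77.0% of all genes above the floor. None was at least 2-fold higher in GFP+ monocytes, where 3.49% of all genes were, and 2 were at least 2-fold lower, where 3.06% of all genes were. Both were assembly factors, Sdhaf3 and Ndufaf7. On the GFP+ array 46 of the 93 lay above the GFP- array (49.5%, against 45% of all genes). The median difference was -0.010 over the 93 genes and 0.0044 over all 96, against -0.06 over all genes above the floor. In bulk samples such as these, fewer cells of a type and less RNA per cell cannot be told apart.

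Red pulp macrophages differed more, and in both directions. Against GFP- monocytes, 8 of the 93 genes were at least 2-fold higher (8.60%) where 19.6% of all genes were, and 6 were at least 2-fold lower (6.45%) where 11.3% of all genes were. The median difference was 0.28, against 0.03 over all genes, and 57 of 93 genes lay above 0 (61.3%, against 51.8% of all genes). Against GFP+ monocytes, 16 genes were at least 2-fold higher (17.2%, against 22% of all genes) and 5 at least 2-fold lower (5.38%, against 11.6%), with a median of 0.23 against 0.10. At 1.5-fold, 26 genes were higher (28.0%, against 33.4%) and 17 lower (18.3%, against 24.5%), and 61 of 93 lay above 0 (65.6%, against 53.8%). The comparisons share arrays, so they are not independent of each other. The median of all genes depended on the floor. With the floor raised to the 75th percentile, 85 of the respiratory chain genes were left. Against GFP+ monocytes their median was 0.23, below the 0.29 of all genes above that floor. Against GFP- monocytes it was 0.28, above the 0.13 of all genes. The medians in macrophages depended on the probe set chosen for each gene: with the mean of a gene's probe sets they were 0.088 against GFP- and 0.093 against GFP+ monocytes, and the counts of higher genes were 4 and 10.

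The counts of 2-fold calls also moved with the scaling of the arrays, while no call changed direction under the 3 scalings tried. Against GFP+ monocytes, quantile normalization again gave 11 genes higher and 10 lower, and cyclic loess gave 14 and 8. Against GFP- monocytes cyclic loess gave 13 higher and 5 lower. These scalings moved the median of all genes too, to -0.03 with quantile normalization against GFP+ monocytes and, with cyclic loess, to 0.04 between the monocyte arrays. Centring each array on its median moved it to 0.23 against GFP+ monocytes.

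**Figure D1:**
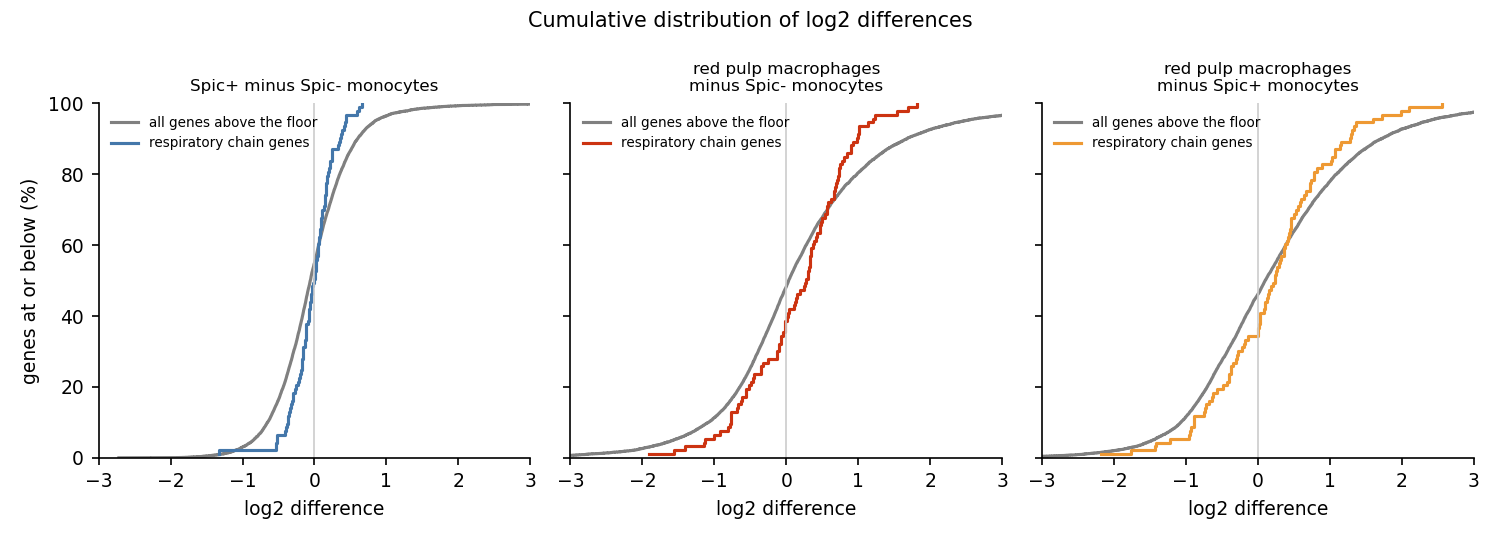
Cumulative share of genes (y axis, percent) at or below each log2 difference (x axis) in the 3 comparisons, for the 93 respiratory chain genes above the floor (coloured line) and all 12375 genes above the floor (grey line). Spic- and Spic+ in the panel titles are the GFP- and GFP+ monocytes. Between the monocyte arrays the coloured line is steeper than the grey one, and in the macrophage comparisons it lies to the right of it around the middle, with medians of 0.28 and 0.23 against 0.03 and 0.10, and inside it at both ends.

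Taken by the array on which they were brightest, 55 of the 93 genes peaked in red pulp macrophages (59.1%, against 45.5% of all genes), 22 in GFP+ monocytes (23.7%, against 25.9%) and 16 in GFP- monocytes (17.2%, against 28.6%). The lowest level was in GFP+ monocytes for 37 genes (39.8%, against 34.7%), in red pulp macrophages for 30 (32.3%, against 39.9%) and in GFP- monocytes for 26 (28.0%, against 25.4%).

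Complex I takes electrons from NADH. Of its core subunits, which hold the flavin and the iron-sulfur clusters, 6 were compared, and all 6 were brightest in red pulp macrophages. The differences from GFP- monocytes ran from 0.13 to 1.21 with a median of 0.69, and those from GFP+ monocytes from 0.14 to 1.73 with a median of 0.80. Ndufv1, the subunit that binds NADH and the flavin, measured 9.91 in GFP- monocytes, 9.39 in GFP+ monocytes and 11.12 in red pulp macrophages. It was the core subunit with the largest difference in both macrophage comparisons, 1.21 and 1.73, and its 2 further probe sets gave 1.34 and 1.03 against GFP- monocytes.

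Ndufs8, an iron-sulfur subunit near the site where ubiquinone is reduced, measured 11.35, 11.01 and 12.35 in the same order, so macrophages were higher by 0.996, just under 2-fold, and 1.34. Its 5 further probe sets gave differences from -0.02 to 0.98 against GFP- monocytes. Ndufs3, also of the arm that faces the matrix, measured 10.23, 9.87 and 11.03. Ndufs1, which carries several iron-sulfur clusters, measured 9.11, 9.16 and 9.53, and Ndufs7 measured 10.58, 11.02 and 11.15. Ndufv2, the partner of Ndufv1, measured 10.45, 10.14 and 10.59, with a difference of 0.13 from GFP- monocytes on this probe set and 0.92 and 0.61 on the 2 others. On the probe sets used, Ndufs7 was the core subunit with the smallest difference between macrophages and GFP+ monocytes. Ndufv2 had the smallest between macrophages and GFP- monocytes. The second probe set of Ndufs7 measured 10.02, 9.91 and 10.51, so macrophages were higher by 0.48 and 0.60 on it. Between the monocyte arrays it gave -0.12, against 0.44 on the one used.

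The accessory subunits surround the core and serve assembly and stability. Of 28 genes 27 were compared, with a median of 0.32 against GFP- and 0.36 against GFP+ monocytes, and 19 of 27 were brightest in macrophages. Their range was wider than that of the core, from -1.13 to 1.54 and from -1.22 to 1.60. Ndufa5 measured 8.70, 8.64 and 10.24 and was higher in macrophages by 1.54 and 1.60, but its second probe set measured 8.72, 8.76 and 8.80, a difference of 0.08. The size of the Ndufa5 difference therefore rests on 1 of its 2 probe sets.

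Ndufa9, which lies near the ubiquinone site, measured 10.07, 9.68 and 11.05, so macrophages were higher by 0.98 and 1.36. Ndufb9 measured 10.16, 9.86 and 11.00, but its next brightest probe set measured 10.43, 10.29 and 10.10 and placed macrophages below both monocyte arrays. Ndufa12 measured 10.09, 10.68 and 11.11, a difference of 1.02 from GFP- monocytes, while its dim plain probe set gave -2.45. The other accessory subunits past 1.5-fold upwards against GFP- monocytes were Ndufa13, Ndufa1, Ndufc2 and Ndufv3, with differences of 0.67 to 0.77.

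Ndufa6 went the other way, with 11.10, 11.19 and 9.97, macrophage differences of -1.13 and -1.22, and close to level between the monocyte arrays. Ndufb1 measured 8.19, 8.21 and 7.27, and Ndufs5, an accessory subunit of the intermembrane space side in spite of its name, measured 9.17, 9.32 and 8.35. Ndufa7 measured 10.57, 10.54 and 9.79, and all 5 of its probe sets were lower in macrophages, with differences of -0.78 to -3.27 from GFP- monocytes. These 4 were the accessory subunits at least 1.5-fold lower in macrophages than in GFP- monocytes. Each of the 4 differed by less than 0.2 between the monocyte populations. The remaining 15 accessory subunits compared differed by less than 1.5-fold between macrophages and GFP- monocytes.

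**Figure D2:**
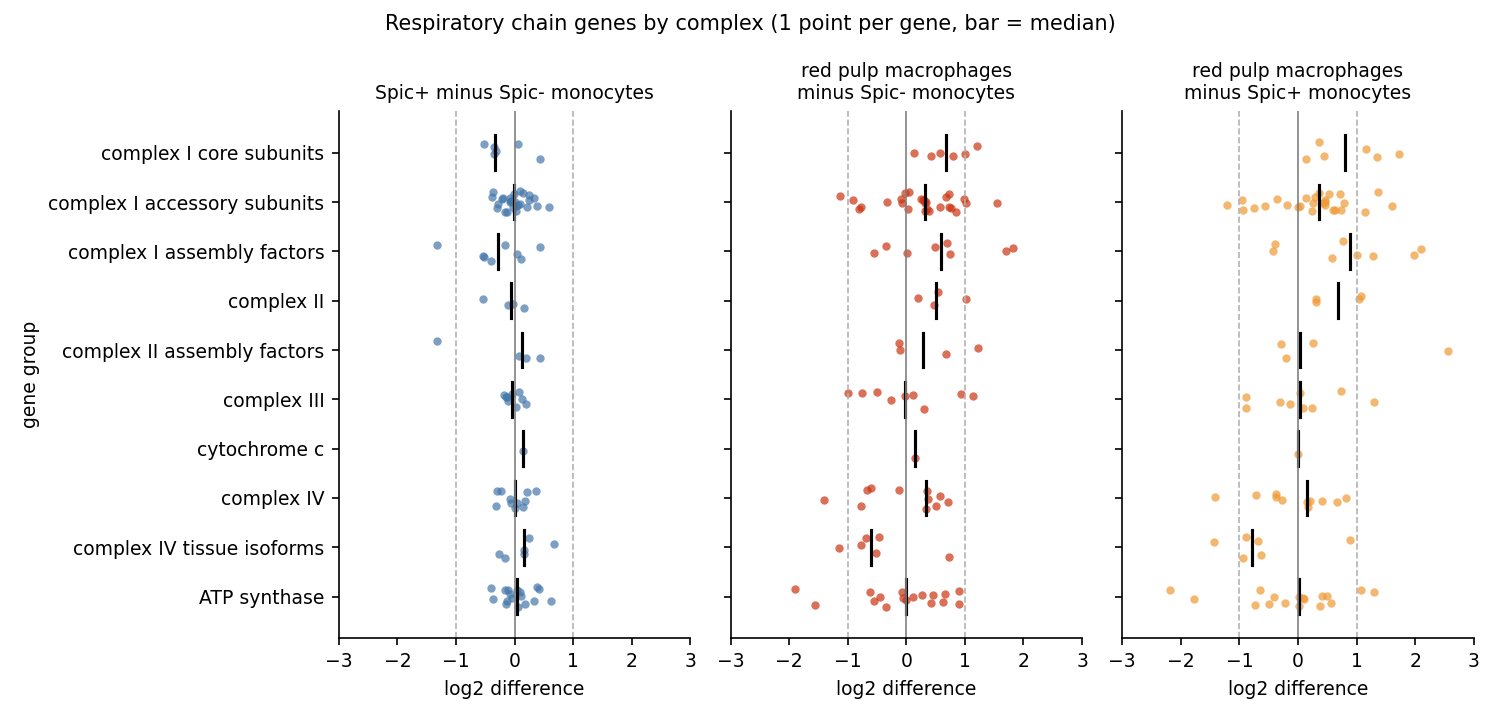
Log2 difference (x axis) of each respiratory chain gene above the floor, grouped by complex (y axis), in the 3 comparisons, with 1 point per gene, a black bar at each group's median and dashed lines at 2-fold. The 6 complex I core and 4 complex II genes lie at or to the right of 0.13 in both macrophage panels, while complex III, complex IV and the ATP synthase spread to both sides of 0.

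The Ndufaf genes encode assembly factors of complex I. All 8 were compared, with medians of 0.59 and 0.89 in macrophages against GFP- and GFP+ monocytes and of -0.29 between the monocyte arrays. Ndufaf1, a factor for the membrane arm, measured 6.79, 6.38 and 8.48, and Ndufaf2, which binds a late assembly intermediate, measured 6.48, 6.31 and 8.30. Macrophages were higher by 1.70 and 1.82 than GFP- monocytes, the largest differences upwards among the 93 genes, and each gene had 1 probe set. Ndufaf6 measured 6.20, 5.66 and 6.94, and Ndufaf5, which hydroxylates Ndufs7, measured 6.30, 5.78 and 6.79. Ndufaf7, a methyltransferase, measured 9.15, 7.83 and 8.60, so it was lowest in GFP+ monocytes, with a difference of -1.33 from GFP- monocytes. Ndufaf3 and Ndufaf4, which act together, measured 8.22, 8.27 and 7.87 and 7.94, 8.38 and 7.95. A second, dimmer probe set of Ndufaf4 measured 5.59, 5.02 and 6.92. It placed macrophages past 2-fold higher, by 1.32 and 1.90, where the one used gave 0.01 and -0.43. Ndufaf8 measured 9.25, 9.36 and 9.94.

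Complex II oxidizes succinate and is shared with the citric acid cycle. Its 4 subunit genes were all brightest in red pulp macrophages, with differences of 0.19 to 1.01 from GFP- and 0.31 to 1.07 from GFP+ monocytes. Sdha, the flavoprotein that oxidizes succinate, measured 10.34, 10.32 and 11.36, and its second bright probe set gave 9.94, 10.01 and 10.98. Sdhb, the iron-sulfur subunit, measured 10.82, 10.70 and 11.01. Of the membrane anchors that hold the heme, Sdhc measured 8.57, 8.72 and 9.04 and Sdhd measured 9.95, 9.41 and 10.48. On a second probe set Sdhc was lower in macrophages, with differences of -0.11 and -0.42.

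Of the complex II assembly factors, Sdhaf3, which takes part in the maturation of Sdhb, measured 5.98, 4.65 and 7.21. The level in GFP+ monocytes was below the floor, so the difference of 2.56 between macrophages and these monocytes rests on a background level. Sdhaf4, a factor for Sdha, measured 8.13, 8.56 and 8.81. Sdhaf1, which acts on Sdhb, measured 7.84, 7.91 and 7.71, and Sdhaf2, which is needed to attach the flavin to Sdha, measured 8.62, 8.82 and 8.52. Both of these differed by less than 0.3 in every comparison on the probe sets used. A second, dimmer probe set of Sdhaf2 measured 7.54, 7.21 and 7.77. It gave -0.33 between the monocyte arrays and placed macrophages higher by 0.23 and 0.56, the opposite direction in each comparison.

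Complex III passes electrons from ubiquinol to cytochrome c. Its 9 genes had medians of -0.02 and 0.03 in macrophages and of -0.05 between the monocyte arrays, with Cyc1 past 2-fold upwards and Uqcrh past it downwards when macrophages were set against GFP- monocytes. Cyc1, cytochrome c1, a heme protein of the complex, measured 9.88, 9.72 and 11.02 and was higher in macrophages by 1.14 and 1.30. Uqcrh, the acidic hinge protein that docks cytochrome c next to Cyc1, measured 11.88, 11.77 and 10.88 and differed by -1.003 and -0.89, and its other probe set gave -1.42 and -1.27. Neighbouring subunits of 1 enzyme thus had opposite differences on these arrays.

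Uqcrb measured 12.70, 12.90 and 13.63, while Uqcr10 measured 10.22, 10.35 and 9.46. The core proteins Uqcrc1 and Uqcrc2 measured 11.24, 11.05 and 10.74 and 10.52, 10.54 and 10.63. A second probe set of Uqcrc2, nearly as bright, measured 10.63, 10.08 and 10.93. On it GFP+ monocytes differed by -0.55 from GFP- monocytes, and macrophages were higher by 0.30 and 0.84. Uqcrfs1, the Rieske iron-sulfur protein, was level on the 3 arrays, with 10.19, 10.14 and 10.17. Uqcr11 measured 9.94, 10.01 and 10.24 and Uqcrq 10.39, 10.27 and 10.14. Cycs, the soluble cytochrome c that carries electrons from complex III to complex IV and also triggers apoptosis once released, measured 11.51, 11.66 and 11.66.

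Complex IV reduces oxygen to water. Its catalytic subunits are encoded in mitochondrial DNA, so the genes measured here are those of the nuclear subunits. The 11 genes expressed in most tissues, with Ndufa4 counted here since its product is a complex IV subunit, had medians of 0.33 and 0.16 in macrophages and of 0.0060 between the monocyte arrays. Cox5b measured 12.28, 12.31 and 12.98, and Cox5a 12.02, 12.38 and 12.59. Cox7a2l, which joins complexes III and IV into supercomplexes, measured 11.64, 11.31 and 12.14. One further probe set of it gave 0.58 between macrophages and GFP- monocytes and another gave -0.59. Between the monocyte arrays these gave -0.53 and -1.03.

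Cox8a measured 11.12, 11.13 and 9.71 and was lower in macrophages than on both monocyte arrays, with a difference of -1.41 from each, and its brighter plain probe set gave -2.59 and -2.58 and its dimmer one -0.46 and -1.35. Cox6a1 measured 13.02, 12.96 and 12.24, and Cox4i1, a regulatory subunit that binds ATP, measured 12.41, 12.12 and 11.74. Cox7c measured 7.43, 7.20 and 6.82. These 4 were the genes of the group at least 1.5-fold lower in macrophages than in GFP- monocytes. The others were Ndufa4 with 10.50, 10.67 and 10.85, Cox6b1 with 12.00, 11.92 and 12.33, Cox6c with 11.53, 11.68 and 11.41, and Cox7a2 with 11.53, 11.74 and 11.90.

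Several complex IV subunits have isoforms that other tissues use in place of the common form. Cox6a2 and Cox8b are the forms of heart and skeletal muscle, Cox4i2 is a form of the lung, Cox6b2 and Cox8c are forms of the testis, and Ndufa4l2 is a relative of Ndufa4 that is induced in low oxygen. The 6 of these 8 genes above the floor had levels of 4.61 to 7.75, against a floor of 5.02. Cox4i2, Cox8b and Ndufa4l2 passed through the monocyte arrays only, so the filter fixed that macrophages were not their highest array. Ndufa4l2 measured 5.66, 6.32 and 4.89, Cox6b2 measured 6.87, 6.61 and 5.72, and Cox8c 7.51, 7.75 and 6.82. Cox6a2 was highest in macrophages, with 5.91, 5.74 and 6.63. Cox4i2 measured 5.41, 5.57 and 4.89 and Cox8b 5.08, 5.23 and 4.61.

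**Figure D3:**
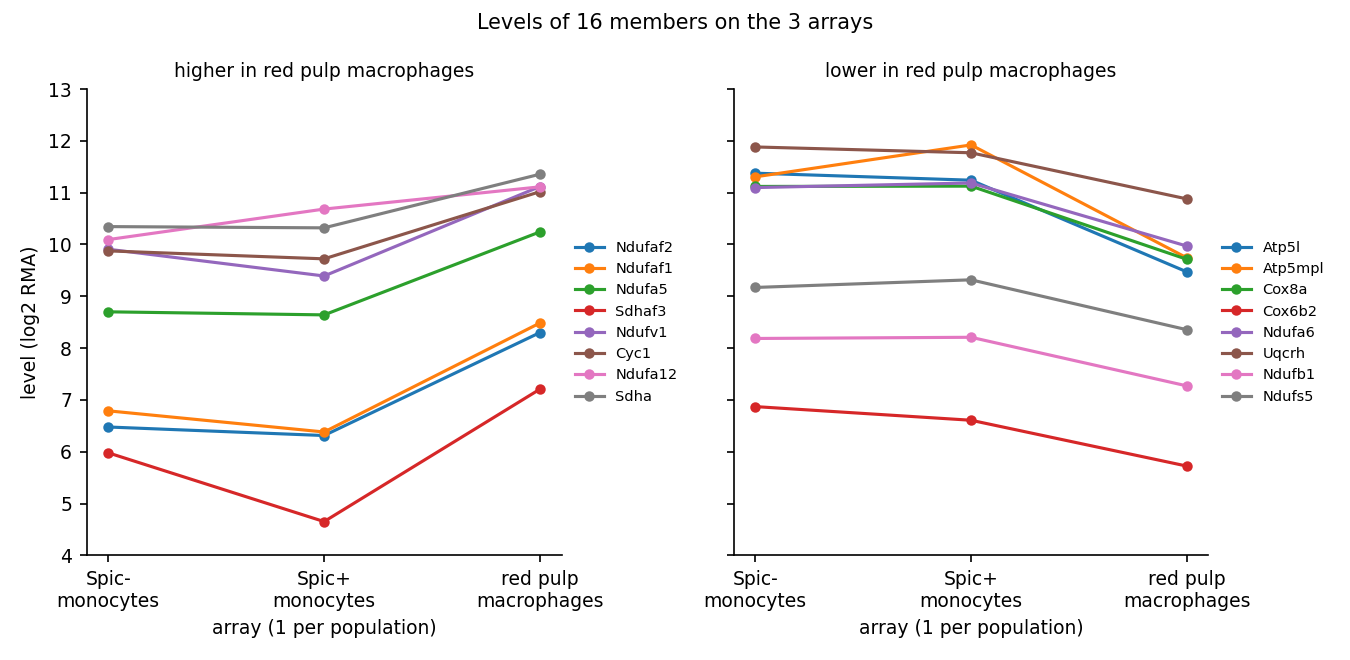
Level (y axis, log2) on the 3 arrays (x axis, 1 array per population) of the 8 genes with the largest difference in each direction between red pulp macrophages and GFP- monocytes, with lines joining the values of 1 gene. In the left panel the 8 genes are higher in macrophages by 1.01 to 1.82, in the right panel the 8 differ by -0.82 to -1.91, and the monocyte arrays lie close together except for Sdhaf3, Atp5mpl, Ndufa12 and Ndufv1.

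The ATP synthase consists of a catalytic head, F1, and a membrane part with a ring of c subunits that turns as protons pass. Its 17 genes had medians of -0.01 and 0.02 in macrophages and 0.05 between the monocyte arrays. The catalytic pair of the head was higher in macrophages: Atp5a1, the alpha subunit, measured 11.47, 11.07 and 12.38, and Atp5b, the beta subunit, measured 11.07, 10.91 and 11.98. Both were more than 2-fold higher than in GFP+ monocytes, by 1.30 and 1.07, and less than 2-fold higher than in GFP- monocytes, by 0.91 and 0.90. The difference of Atp5b from GFP+ monocytes was 0.99 after quantile normalization again. The shaft and foot of the head did not share these differences: Atp5c1 measured 12.14, 12.02 and 12.12, Atp5d measured 11.80, 11.65 and 12.07, and Atp5e measured 10.73, 11.15 and 10.65.

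The lowest values relative to the monocytes were those of small membrane subunits. Atp5l, subunit g, measured 11.38, 11.24 and 9.47, with macrophage differences of -1.91 and -1.77, and Atp5mpl, a small proteolipid bound to the enzyme, measured 11.30, 11.92 and 9.74, with differences of -1.56 and -2.18. These were the largest differences downwards among the 93 genes, and each gene had 1 probe set. Atp5mpl was also among the 3 genes at least 1.5-fold higher in GFP+ than in GFP- monocytes (0.62), the others being Ndufa4l2 (0.67) and Ndufa12 (0.59), where 10.4% of all genes passed that mark.

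The 3 genes for the same c subunit differed in direction. Atp5g1 measured 9.29, 9.38 and 8.74 and Atp5g2 measured 10.33, 10.44 and 9.70, so both were lower in macrophages, while Atp5g3 measured 12.02, 12.19 and 12.69. The mature proteins of these genes are the same and only the targeting peptides differ. Of the stalk and the other subunits, Atp5h measured 12.09, 12.15 and 12.71 and Atp5pb, subunit b, measured 11.85, 11.48 and 11.50. Their plain probe sets lay lower in macrophages, with differences of -0.12 and -0.23 for Atp5h and, past 2-fold, of -1.36 and -1.28 for Atp5pb. Atp5o measured 10.52, 10.45 and 10.48 and Atp5j 10.72, 11.04 and 10.82. Atp5j2 measured 11.48, 11.53 and 11.91, with a further probe set at 11.25, 11.52 and 10.18. Atp5k measured 11.22, 11.18 and 10.78, and Atp5md 9.53, 9.91 and 9.99.

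A grouping by role, made after these values were seen, sets the complex I core and catalytic or electron-carrying subunits elsewhere apart from the rest. It joins the 6 complex I core genes, the 4 complex II genes, Cyc1, Uqcrfs1, Cycs, Atp5a1 and Atp5b. Of these 15, 14 were brightest in red pulp macrophages (93.3%, against 45.5% of all genes), Uqcrfs1 being the exception. The median difference was 0.57 from GFP- and 1.04 from GFP+ monocytes, against 0.03 and 0.10 over all genes. Against GFP- monocytes, 7 were at least 1.5-fold higher (46.7%, against 29.5% of all genes). None was at least 1.5-fold lower in macrophages, where 22.1% of all genes were against GFP- and 24.5% against GFP+ monocytes. The 60 other subunits compared, tissue isoforms aside, had medians of 0.19 and 0.12, with 12 at least 1.5-fold higher (20.0%, against 29.5% of all genes) and 13 at least 1.5-fold lower (21.7%, against 22.1%) than in GFP- monocytes. The same 15 genes had a median of -0.15 between the monocyte arrays. Of the 3 arrays, the GFP+ one held the lowest level for 11 of the 15 (73.3%, against 34.7% of all genes). Because the grouping followed the values, it describes these arrays and supports nothing further.

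Different probe sets of 1 gene did not always give 1 answer. Of the 96 genes 54 had several probe sets. Among 81 further probe sets above the floor, from 50 of the genes compared, 59 had the direction of the chosen probe set between the monocyte arrays (72.8%), 54 did against GFP- monocytes (66.7%) and 55 against GFP+ monocytes (67.9%). For genes at least 1.5-fold different in macrophages the numbers were 28 of 38 and 29 of 36.

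The disagreement had a pattern, looked at after the values were seen. On this array a plain suffix (_at) marks a probe set designed for 1 transcript, and the suffixes _a_at, _s_at and _x_at mark probe sets that can bind several transcripts of a gene or family. In 40 of the genes both kinds were above the floor. The plain probe set gave the lower difference between macrophages and GFP- monocytes in 30 of the 40 (75%, against 57.3% of 2638 genes with both kinds), with medians of -0.12 on plain and 0.38 on other probe sets, against 0.03 and 0.13 over all such genes. In 12 genes the plain probe set was lower and the other higher in macrophages, namely Ndufa3, Ndufa12, Ndufb2, Ndufb7, Ndufb9, Ndufc1, Ndufc2, Cox5b, Cox6b1, Cox7a2, Atp5h and Atp5j2, and in Uqcr10 and Uqcrq it was the reverse. Between the monocyte arrays the plain probe set was the lower one in 20 of 40. The Gapdh and Actb control differences, which do not order the monocyte arrays alike, were both higher in macrophages than in GFP- monocytes, and their part in this disagreement was not tested. For Ndufv1, Sdha, Atp5a1, Uqcrh and Cox8a both kinds gave the same direction.

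**Figure D4:**
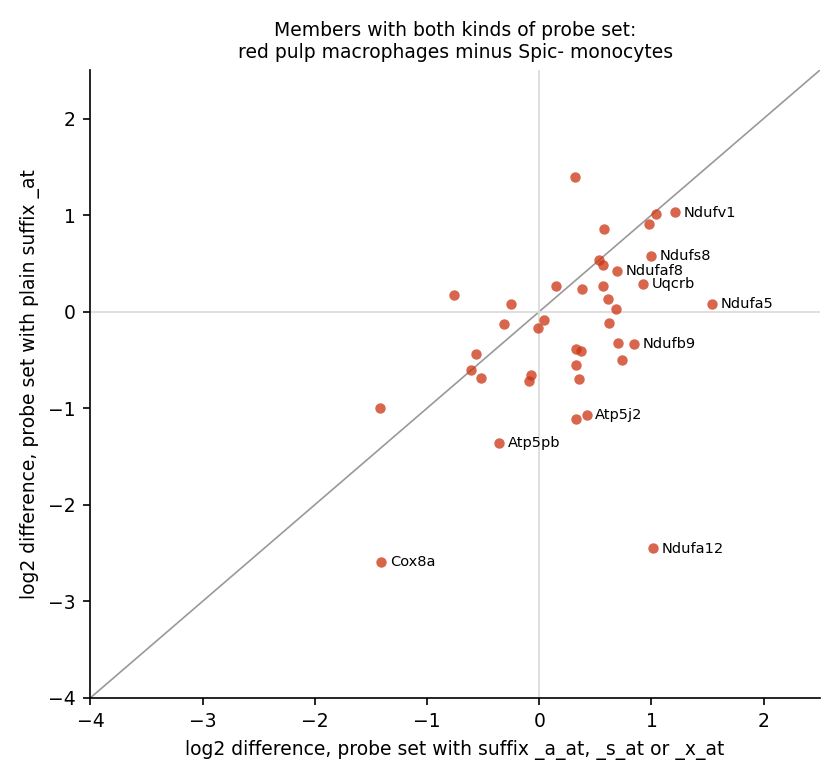
Log2 difference between red pulp macrophages and GFP- monocytes on the brightest plain probe set (y axis) against the brightest probe set of the other suffixes (x axis), 1 point for each of 40 genes, with the line of equal values. Of the points 30 lie below the line, Ndufa12 farthest, with -2.45 against 1.02, and 12 lie to the right of 0 on the x axis and below 0 on the y axis.

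The upstream sequence of these genes was searched for motifs of factors known to act on them. NRF1 and GABP, a member of the ETS family, are regulators of nuclear genes for the respiratory chain, YY1 is another, and Spic belongs to the SPI branch of the ETS family. In RefSeq windows of GRCm38.p6 from 250 bases before to 50 after a gene's start, 79 of the 96 genes were matched, with 84 windows. The NRF1 motif (GCGCA, any base, then GCGC, sought like the others on both strands) was in 20 of the 84 (23.8%), against 4.6% of all 32851 windows. The letters CCGGAAG (ETS core) were in 22 (26.2%, against 8.86%), AANATGGCG (YY1) in 11 (13.1%, against 2.38%) and GAGGAAGT (SPI family) in 3 (3.57%, against 3.20%). No ETS core match overlapped an SPI match in these windows. A match is a description of the letters and not a bound site.

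Genes with and without a match had these differences. The 18 genes above the floor with an NRF1 match had a median macrophage difference of 0.15 from GFP- monocytes, and the 58 without 0.28. The 22 with an ETS core match had 0.32 against 0.26 for the 54 without. The 11 with a YY1 match had 0.35 against 0.26 for 65 without, and the 3 with an SPI match 0.11 against 0.30 for 73. Against GFP+ monocytes the medians ran from 0.18 to 0.27 with a match and from 0.22 to 0.23 without. The bases before 4 starts are shown because they place the same letters upstream of genes that were higher and lower in macrophages, with capitals marking the matches in either orientation, read 5' to 3' on the gene's strand, which is the minus strand of GRCm38.p6 for all 4.
Sdha (higher by 1.01 than in GFP- monocytes), chr13:74350241-74350490, 3 NRF1 matches: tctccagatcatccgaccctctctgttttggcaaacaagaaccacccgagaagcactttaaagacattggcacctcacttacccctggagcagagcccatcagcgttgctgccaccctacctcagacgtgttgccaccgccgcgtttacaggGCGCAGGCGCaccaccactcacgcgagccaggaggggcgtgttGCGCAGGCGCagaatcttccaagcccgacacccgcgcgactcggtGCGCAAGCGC
Cox6a1 (difference of -0.77), chr5:115348959-115349208, 2 NRF1 matches and 1 ETS core match: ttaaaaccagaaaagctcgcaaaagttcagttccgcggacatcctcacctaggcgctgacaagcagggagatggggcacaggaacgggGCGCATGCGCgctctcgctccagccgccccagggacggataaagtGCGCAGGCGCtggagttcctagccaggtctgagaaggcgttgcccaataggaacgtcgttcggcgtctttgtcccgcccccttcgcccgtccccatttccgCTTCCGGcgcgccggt
Ndufs3 (higher by 0.80), chr2:90904722-90904971, 1 ETS core match: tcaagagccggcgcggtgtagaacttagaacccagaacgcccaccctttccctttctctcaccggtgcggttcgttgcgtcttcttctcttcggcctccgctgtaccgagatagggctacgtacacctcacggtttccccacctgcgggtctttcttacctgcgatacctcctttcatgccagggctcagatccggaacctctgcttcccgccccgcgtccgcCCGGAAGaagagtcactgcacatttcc
Uqcrh (difference of -1.003), chr4:116075071-116075320, 1 ETS core match: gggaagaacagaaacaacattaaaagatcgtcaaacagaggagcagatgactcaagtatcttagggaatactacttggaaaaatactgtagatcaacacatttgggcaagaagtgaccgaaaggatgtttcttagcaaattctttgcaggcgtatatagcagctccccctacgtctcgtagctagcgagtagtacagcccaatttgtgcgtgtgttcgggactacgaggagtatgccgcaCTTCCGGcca
In Sdha the NRF1 match nearest the start ends 1 base before it, and in Uqcrh the ETS core match lies 10 to 4 bases before it.

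Other genes of mitochondrial energy metabolism were read from lists, by their 2-fold counts in macrophages against GFP- monocytes, where all genes had 19.6% past 2-fold upwards and 11.3% downwards and a median of 0.03. Of 16 genes of the citric acid cycle and pyruvate oxidation, 2 were higher (12.5%) and none lower, with a median of 0.44. Suclg2, a succinyl-CoA ligase subunit, was highest of these (1.63) and Cs, citrate synthase, lowest (-0.91). Of 34 assembly factors outside the genes described so far, 7 passed 2-fold upwards (20.6%) and 2 downwards (5.88%), with a median of 0.48. Nubpl, which inserts iron-sulfur clusters into complex I, measured 1.69 above GFP- and 2.48 above GFP+ monocytes. Of 12 genes of coenzyme Q synthesis and handling, 6 exceeded 2-fold upwards (50%) and 1 downwards (8.33%), and the median was 1.01.

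Of 76 mitochondrial ribosomal protein genes, 14 exceeded GFP- monocytes by 2-fold or more (18.4%) and 3 lay 2-fold or more below (3.95%), with a median of 0.35, from Mrpl33 (-1.94) to Mrps6 (3.06). Among 20 genes for protein import into mitochondria 5 were 2-fold higher (25%) and none lower, and the median was 0.66. Among 13 genes for cristae and the inner membrane 3 were higher (23.1%) and none lower, and the median was 0.53. Glycolysis genes split, with 5 of 19 higher (26.3%), 4 lower (21.1%) and a median of 0.32. Between the monocyte arrays these 7 lists had medians from -0.27 to 0.03, against -0.06 over all genes. The 1 respiratory chain gene of mitochondrial DNA with a probe set of its own, ND5 of complex I, measured 12.32, 12.77 and 12.46, so it differed by less than 0.5 in each comparison.

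Markers of some other cells were higher on the macrophage array, while those of neutrophils were nearly level in sum. Of 15 erythroid genes measured, 13 were above the floor in red pulp macrophages, against 4 in GFP- and 6 in GFP+ monocytes, and their summed level was log2 13.92 against 8.61 and 8.78. Probe sets shared by the alpha globin genes were also higher in GFP+ than in GFP- monocytes, by 4.04 to 5.13. All 7 natural killer cell genes were above the floor in macrophages, against 2 on each monocyte array, with summed levels of 10.81, 7.49 and 7.54 in macrophages, GFP- and GFP+ monocytes. Of 9 T cell genes 7, 2 and 3 were above it in that order (9.47, 8.42 and 8.61), and of 8 platelet genes 5, 4 and 5 (10.49, 8.53 and 8.87). Of 8 neutrophil genes 7, 8 and 8 were above it (14.93, 14.88 and 15.04). B cell genes had summed levels of 11.76 in GFP- monocytes, 13.38 in GFP+ monocytes and 14.61 in macrophages. Of the 11, 10 were higher by 2-fold or more in GFP+ than GFP- cells (90.9%, against 3.49% of all genes). The macrophage sum was nearly all Ighm (14.49), and 8 of the 11 were lower in macrophages than in GFP+ monocytes, with a median of -0.32. Of 23 cell cycle genes compared, 22 passed 2-fold upwards between GFP- monocytes and macrophages (95.7%, against 19.6% of all genes), with a median of 2.63. In the same comparison 9 of 10 classical monocyte genes passed it downwards (90%, against 11.3%). Erythroid precursors and dividing cells also express respiratory chain genes, and the part of these cells in the differences above was not tested.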

How the data were processed

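RNA from 3 sorted populations was measured on 1 array each, from total RNA amplified over 2 cycles per the labels' protocols. Values were deposited by the authors on a log2 scale, 1 per probe set, after RMA, as the submitters' processing notes name it. RMA corrects background, equalizes the arrays' distributions and combines a set's probes. Its version is not stated. The log2 scale was read from the values (1.82 to 14.50). RMA gives the arrays nearly 1 distribution, so a shift in RNA content of the whole cell is lost, and amplification shortens RNA.

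Of 45101 probe sets, 64 controls were left out, 34945 had 1 symbol, 932 had several and named no gene, and 9160 were unnamed here. Of these probe sets, 34741 matched the GRCm38.p6 gene table by identifier and took its current symbol (for the members the platform's). Of the member symbols, 10 probe sets shared with other genes were not used. Differences between arrays were counted at 2-fold and 1.5-fold, with no significance test, and the number of arrays limits the precision. In full are named, per comparison, the 8 largest differences in each direction, every gene at least 2-fold different, and the complex II, cytochrome and isoform genes, with the rest by group. Genes of other lists named are the extremes of their list, apart from Spic, Itgam and those marked as named after their values were seen. The members and lists were chosen with earlier results of these data known.

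Alternatives tried were each gene's mean or median over probe sets, no _x_at or _s_at probe sets, arrays centred, quantile normalization again, cyclic loess, no floor, a floor at the 75th percentile (log2 7.26), and subunits alone, which was chosen after seeing the data. Computation used Python 3.11.15 with pandas 2.3.3, and cyclic loess in limma 3.58.1 under R 4.3.3, and was tested on simulated data.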

Additional observations from a re-analysis of the deposited data

How the results depend on the processing

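Each population has 1 array, which limits every comparison, and depth on an array shows only as signal over background. No paired analysis was possible because each group has 1 array. Counts that moved by more than 1.5 times and medians that moved by more than 0.1 are given here. Genes at least 2-fold lower in GFP+ than in GFP- monocytes numbered 2, and 1 with the mean or the median of probe sets, without _x_at and _s_at probe sets and with the floor at the 75th percentile, and 0 for subunits alone. Without a floor 1 gene was 2-fold higher there. Its median was 0.099 with cyclic loess. Against GFP- monocytes, macrophages had 4 genes 2-fold higher with the mean or the median of probe sets, 13 with cyclic loess and 5 for subunits alone, and medians of 0.088, 0.11 and 0.17 with the mean, the median and without _x_at and _s_at probe sets. Against GFP+ monocytes they had 10 genes higher with the mean of probe sets. In the same comparison 8 genes were lower with the median of probe sets, without _x_at and _s_at probe sets and with cyclic loess, and 10 with quantile normalization again. Its medians were 0.093 with the mean of probe sets, 0.35 with centred arrays and 0.079 with quantile normalization again. Of the 37 differences of at least 2-fold over all comparisons, 26 stayed past 2-fold in the same direction under each alternative that gave them a value. The difference of Ndufa12 between macrophages and GFP- monocytes reversed to -2.45 without _x_at and _s_at probe sets, where its dim plain probe set is the one left. The causes of the other moves were not tested.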

Other observations

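A list of alternative electron entry, uncoupling proteins and nucleotide carriers had 5 of 10 genes at least 2-fold higher in red pulp macrophages than in GFP- monocytes (against 19.6% of all genes) and 6 of 10 against GFP+ monocytes (against 22%), none 2-fold lower, and medians of 0.94 and 1.15. Of the 10, 7 feed electrons into the chain outside complexes I and II, and 4 of these passed 2-fold upwards in each comparison: Dhodh, Etfb, Gpd2 and Prodh against GFP- monocytes, and Dhodh, Etfb, Gpd2 and Etfdh against GFP+ monocytes. The others past 2-fold were Ucp3, an uncoupling protein, in both comparisons and Slc25a4, an ADP/ATP carrier, in the second. Dhodh, the pyrimidine synthesis enzyme that reduces ubiquinone, measured 6.11 in GFP- monocytes, 5.89 in GFP+ monocytes and 7.85 in macrophages. Etfb, a subunit of the electron transfer flavoprotein that serves fatty acid oxidation, measured 9.09, 8.73 and 10.73, and its partner Etfa 9.61, 9.61 and 10.43. Gpd2, the mitochondrial glycerol phosphate dehydrogenase, measured 8.70, 8.48 and 9.75. Sqor, which oxidizes sulfide, was lower in macrophages than in GFP- monocytes, with 10.71, 10.01 and 10.18. This split of the list, and the genes named beside its extremes, were chosen after their values were seen.

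Regulators of mitochondrial biogenesis went both ways between macrophages and GFP- monocytes, with 10 of 19 genes above 0 and 9 below, differences of -1.15 to 2.01 and a median of 0.12. Over all genes 51.8% lay above 0 and the median was 0.03. At 1.5-fold, 4 of the 19 were higher, where 29.5% of all genes were, and 3 lower, where 22.1% of all genes were. Between the monocyte arrays 16 of the 19 were lower in GFP+ monocytes and 3 higher, with a median of -0.23. Of all genes 45% lay above 0, with a median of -0.06. At 2-fold, 2 of the 19 were lower (10.5%, against 3.06% of all genes) and 1 higher (5.26%, against 3.49%). The 1 higher gene was Ppargc1b, a coactivator of respiratory genes, with 6.95 in GFP- monocytes, 8.36 in GFP+ monocytes and 7.07 in macrophages. Its relative Ppargc1a was below the floor on all 3 arrays. Tefm, the elongation factor of mitochondrial transcription, measured 5.69, 6.20 and 7.70 in the same order. Nrf1 measured 7.62, 7.50 and 7.91, Gabpa 9.02, 8.19 and 8.78, and Tfam, which packages mitochondrial DNA, 7.93, 7.54 and 8.12. These 3 and Ppargc1a were named after their values were seen.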
